A study of Mus musculus with 6 samples.

Results

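The genes described here build and run the DNA replication machine, from the marking of origins to the sealing of the finished strand. They are the 49 genes of a fixed list of replication licensing and fork genes whose symbol stood alone at a probe set of the array's annotation table, out of 18193 genes measured in the same way. All 49 listed genes were found, with 102 probe sets between them, and 35 had more than 1. Each gene was represented by its probe set with the highest mean over the 6 arrays, and the remaining probe sets are given where they bear on a result. The mean level of every representative lay above the lowest array median, 5.90 on the log2 scale, and single-array values ran from 5.88 to 12.25.

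Cells of the bone marrow that sustain blood formation, LT-HSCs (long-term haematopoietic stem cells), had been sorted by the surface profile Lin-Sca1+CD150+CD48-. The mice were 8 weeks old and of mixed background. In the dKO group MxCre was combined with the floxed alleles c-myc f2 (gene Myc) and N-myc f2 (gene Mycn), and the labels of the control group name the same alleles and no Cre. Mice of both groups had been given pI-pC on 2 days, the last time 3 days before the marrow was taken. There were 3 arrays a group, each with a separate pool of 3 dKO or 2 control mice. MxCre is driven by an interferon-responsive promoter, which pI-pC, a synthetic double-stranded RNA, switches on in many cell types and not in stem cells alone. A label of control replicate 2 writes the second floxed gene as M-Myc, where the other labels write N-myc.

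In every dividing cell, replication starts with licensing. The origin recognition complex, Cdc6 and Cdt1 load the MCM helicase as an inactive ring onto DNA in G1, and geminin stops this from being repeated later in the cycle. In S phase the Dbf4-dependent kinase Cdc7 and cyclin-dependent kinases join Cdc45 and the GINS complex to the ring, the helicase opens DNA, and polymerases, the PCNA clamp and its loader copy it. Long-term stem cells are mostly quiescent, and many of these genes are known targets of E2F transcription factors, which switch them on as cells enter the cycle.

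Short stretches before the annotated starts of 11 of these genes are shown because they hold, or lack, the strings by which E2F factors and Myc are known to bind DNA. All are 60 bases of the coding strand, 5′ to 3′, from RefSeq's promoter windows on GRCm38.p6, and end before the start itself. The first 7 hold an E2F string, TTGGCGC or TTCCCGC or their reverse complements, in capitals.
Mcm5, chr8:75109318-75109377, plus strand: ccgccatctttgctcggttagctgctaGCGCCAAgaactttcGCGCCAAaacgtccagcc
Mcm6, chr1:128359782-128359841, minus strand: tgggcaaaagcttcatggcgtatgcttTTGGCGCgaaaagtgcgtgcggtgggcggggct
Mcm7, chr5:138171347-138171406, minus strand: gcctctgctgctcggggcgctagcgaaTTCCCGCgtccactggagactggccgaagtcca
Cdc6, chr11:98907986-98908045, plus strand: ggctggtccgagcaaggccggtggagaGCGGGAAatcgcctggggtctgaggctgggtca
Prim1, chr10:128015155-128015214, plus strand: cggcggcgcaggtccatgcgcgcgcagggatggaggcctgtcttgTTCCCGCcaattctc
Rpa2, chr4:132768296-132768355, plus strand: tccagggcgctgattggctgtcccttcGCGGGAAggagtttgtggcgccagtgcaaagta
Rpa3, chr6:8259142-8259201, minus strand: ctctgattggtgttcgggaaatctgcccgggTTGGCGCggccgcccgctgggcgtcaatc
In the Fen1 stretch the capitals mark an E-box, CACGTG, the core string that Myc binds with its partner Max.
Fen1, chr19:10203922-10203981, minus strand: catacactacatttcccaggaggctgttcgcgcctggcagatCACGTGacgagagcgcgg
Of Mcm2, Pcna and Pole2, whose expression differed between the groups, the last 60 bases before the start are given, and these hold neither string.
Mcm2, chr6:88898781-88898840, minus strand: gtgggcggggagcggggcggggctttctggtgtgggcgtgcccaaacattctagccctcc
Pcna, chr2:132253181-132253240, minus strand: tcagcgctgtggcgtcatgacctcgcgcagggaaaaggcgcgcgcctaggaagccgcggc
Pole2, chr12:69228191-69228250, minus strand: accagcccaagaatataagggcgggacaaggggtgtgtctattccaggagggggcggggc

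The windows searched ran from 250 bases before to 50 after each start, on both strands, with overlapping matches counted, and existed for 40 of the 49 genes. An E2F string stood in the windows of 25 of these (62.5%), against 11.7% of the 14452 array genes with a window and 6.81% of all 32851 windows. An E-box stood at 7 of the 40 (17.5%), against 10.2% of array genes and 7.15% of all windows. The CCAAT box, CCAAT on either strand, stood at 23 of the 40 (57.5%), against 42.0% of array genes and 37.4% of all windows. Mcm5 held its 2 E2F strings 164 and 149 bases before the start, and Pole2 held a single one 11 bases after it. A match is a run of letters and was not tested as a binding site.

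**Figure D1:**
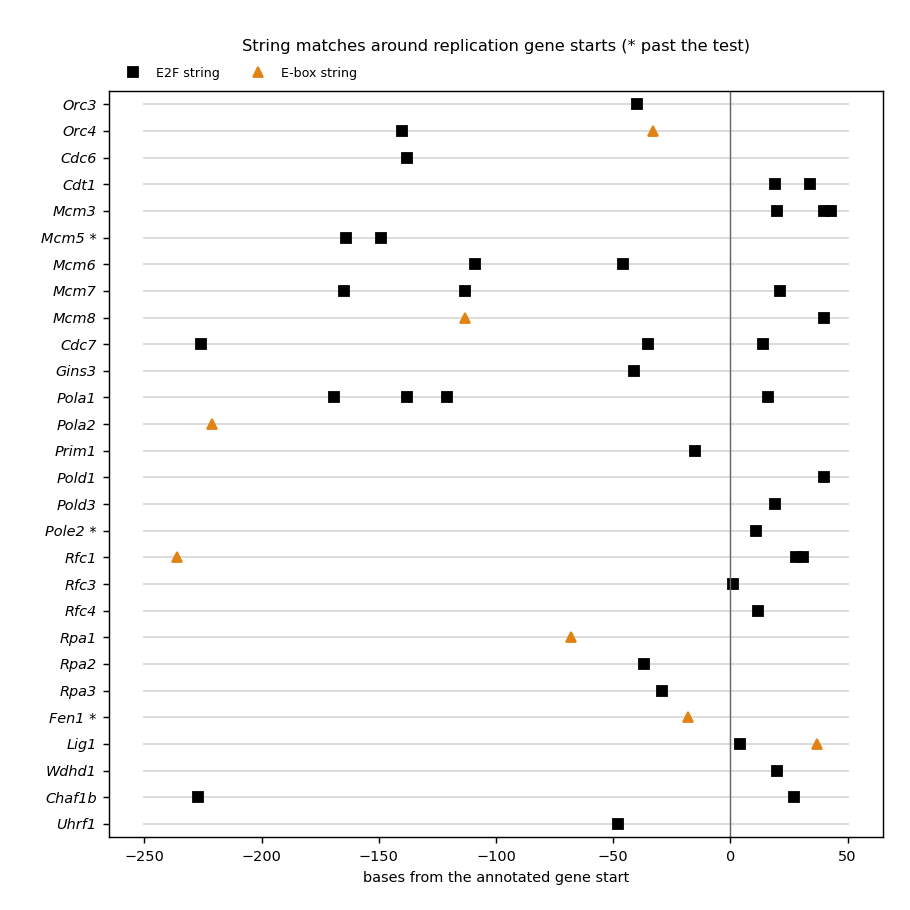
Position of E2F strings (black squares) and E-box strings (orange triangles) from 250 bases before to 50 bases after the annotated start, for the replication genes with at least 1 match (rows; an asterisk marks genes whose expression passed the test). Where a gene has several annotated starts, its windows are drawn on 1 row. E2F strings lie on both sides of the start, in the windows of 25 of 40 genes.

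Both deleted genes fell. Myc read 7.28, 7.77 and 7.24 in dKO and 10.40, 10.57 and 10.11 in control arrays (log2 change -2.93 ± 0.20 SE, limma adjusted p = 0.00137). All values are RMA values on the log2 scale, given for replicates 1, 2 and 3 in turn. The Mycn probe set 1417155_at read 3.40, 3.81 and 3.17 in dKO, in the range of the array's negative control probe sets (2.13 to 3.92), and 10.80, 10.87 and 10.76 in control arrays (adjusted p = 2.34e-05). The brighter Mycn probe set 1425922_a_at also fell, and stayed above that range, at 7.71, 7.08 and 7.20 in dKO and 9.23, 8.70 and 8.89 in control arrays (-1.61 ± 0.22, adjusted p = 0.00938). The dimmest, 1425923_at, differed by -0.08 (adjusted p = 0.858). Arrays correlated at 0.974 to 0.981 within groups and 0.956 to 0.969 between groups, and the Gapdh controls read higher at their 3′ than their 5′ end, which tracks RNA quality, by 2.39 to 2.47 in dKO and 2.12 to 2.36 in control arrays. Of 8 measured LT-HSC markers 0 lay below the lowest array median, but 3, Kit, Tek and Hlf, fell and Gata2 rose, with a mean level over the 8 of 9.60 to 9.87 in dKO and 10.32 to 10.41 in control arrays. Cd48, whose protein the sort selected against, rose and read 9.03 to 9.66 in dKO and 8.01 to 8.39 in control arrays. The other measured genes listed as low in LT-HSCs, Flt3 (-0.37), Il7r (0.87) and Cd34 (-0.14), did not pass.

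Most replication genes had small positive differences, and few passed the test. Of the 49 genes, 5 rose (10.2%) and 0 fell at a limma adjusted p of 0.05, while 44 did not pass. Over all 18193 genes 4.49% rose and 3.56% fell. A set of 8395 genes, called the brighter genes here, was at least as bright as the dimmest member (mean 6.67). Of these 8.31% rose, so the share of calls is near that background. The brighter genes share only this lower bound and were not matched to the members, whose median level was 8.98. Over all 102 probe sets of the 49 members 11 rose (10.8%) and 0 fell, against 3.57% and 3.41% of all probe sets. Among all probe sets of the brighter genes 6.31% rose. Some probe set rose in 8 members (16.3%), against 5.64% of all genes and 10.4% of the brighter ones. The differences themselves leaned one way. The median log2 change was 0.38, against 0.01 over all genes and 0.03 over the brighter ones. Of the 49 changes 39 were positive (79.6%), against 50.7% and 52.8%. The 3 measured housekeeping genes, Actb, Tbp and Hprt, also had positive changes (0.41, 0.46 and 1.05), and 0 passed. Their bearing on the members' changes was not tested. In 24 of the 49 genes every dKO array lay above every control array (49%), against 15.8% of all genes and 25.3% of the brighter ones. The opposite order held for 3 genes, Orc1, Orc3 and Pola2, where the shares were 14.2% and 19.5%. Since each array holds a pool of sorted cells, a change in the number of cells of a kind and a change in RNA per cell, such as more cells in cycle and more RNA per cycling cell cannot be told apart.

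**Figure D2:**
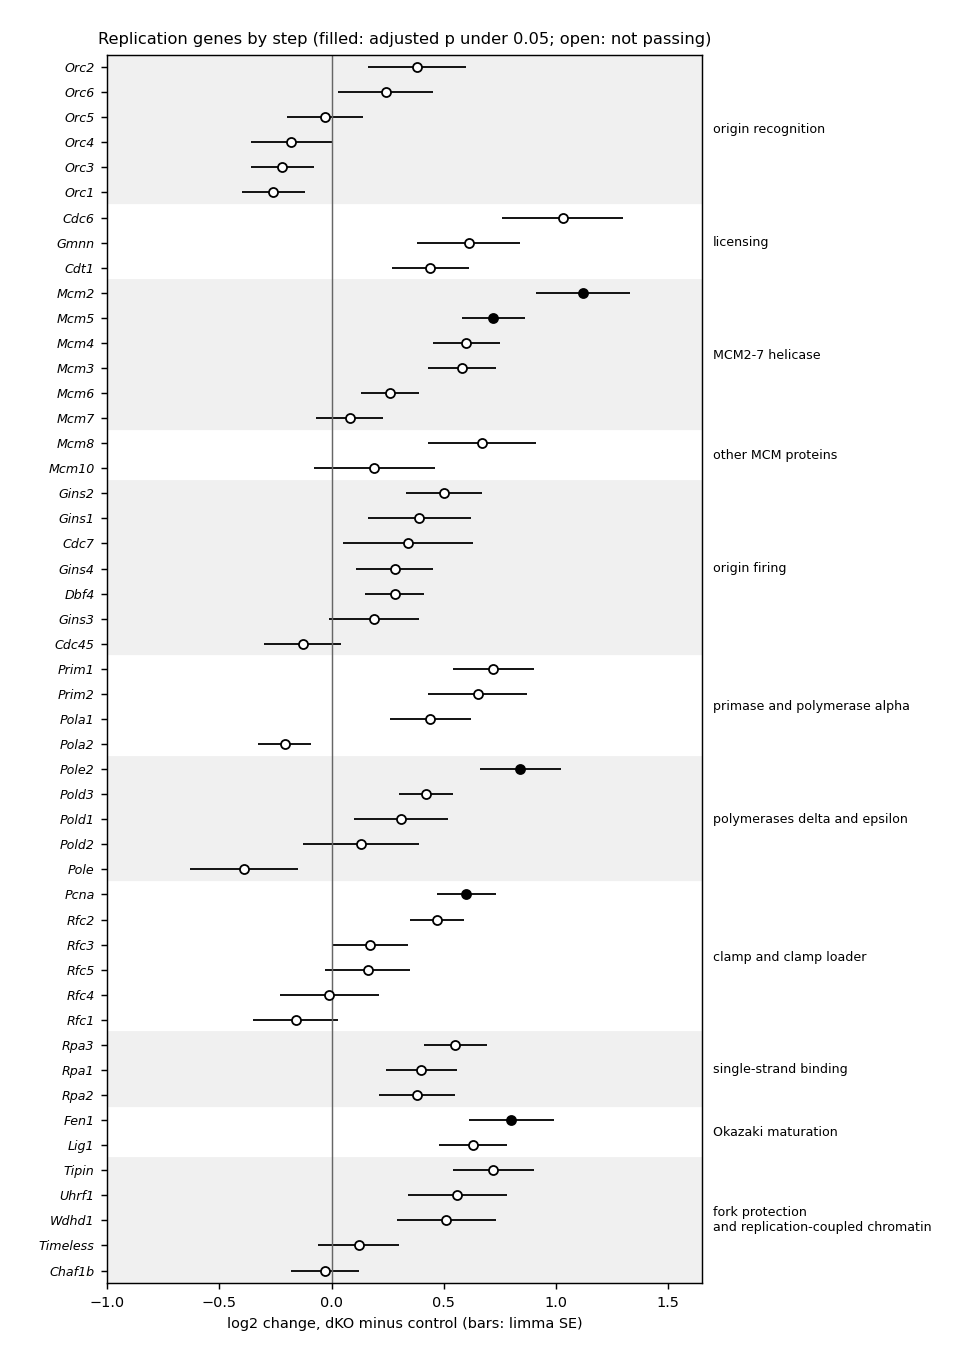
Log2 change, dKO minus control, of the 49 replication genes by their representative probe sets, with limma standard errors as bars, grouped by replication step. Filled points passed an adjusted p of 0.05. The MCM2-7, licensing, single-strand binding and Okazaki groups lie wholly to the right of 0, and 4 of 6 origin recognition genes lie to the left.

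The origin recognition genes gave no common direction. The complex of Orc1 to Orc6 marks origins and recruits the loading factors, and 0 of its 6 genes passed in either direction, with a median log2 change of -0.11 and a range of -0.26 to 0.38 at the representatives. The signs depend on the probe set: 2 of 6 representatives were positive, while over the mean of each gene's probe sets Orc1 (0.09) and Orc4 (0.42) turned positive too. Differences between the replication steps were not tested. Orc1, the ATPase subunit whose level varies with the cycle, had the smallest p among the 6 representatives. Its representative probe set read 7.39, 7.12 and 7.39 in dKO, against 7.60, 7.48 and 7.58 in control arrays. Every dKO array was lower (log2 change -0.26 ± 0.14 SE, adjusted p = 0.349). The other Orc1 probe set, 1422663_at, went the opposite way, at 6.68, 6.39 and 6.51 in dKO and 6.19, 5.99 and 6.11 in control arrays (log2 change 0.43, adjusted p = 0.125), so the data give no single direction for Orc1. Orc4 likewise ranged from -0.18 to 0.80 over its 4 probe sets, while the 3 Orc3 probe sets were all negative (-0.56 to -0.22, with an adjusted p of 0.0651 at the lowest, 1416116_at) and the 3 Orc2 probe sets all positive (0.37 to 0.52).

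The 3 licensing genes had positive changes, and none passed the test. Cdc6, the ATPase that works with the origin complex to load the helicase, read 8.46, 8.51 and 8.46 in dKO, against 7.93, 7.56 and 6.84 in control arrays. The dKO pools were nearly equal and all above the controls, which spread widely. The difference was 2.04-fold (log2 change 1.03 ± 0.27 SE, adjusted p = 0.0687), and it passed in 1 of 6 leave-outs, without control replicate 1 (adjusted p = 0.0444), against 0.0773 to 0.164 without any other array. Cdt1, the second loading factor, differed by 0.44 ± 0.17 with groups that did not overlap (adjusted p = 0.193). Gmnn, which encodes geminin, the inhibitor of Cdt1, differed by 0.61 ± 0.23 with overlapping groups (adjusted p = 0.18). Both dimmer Cdt1 probe sets stood nearer to 0, at 0.08 and -0.14, and the dimmest lay in the negative control range.

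The MCM2-7 helicase, the ring that unwinds DNA, held 2 of the 5 rises, Mcm2 and Mcm5. That is 33.3% of its genes, against 4.49% of all genes and 8.31% of the brighter ones. All 6 changes were positive (median 0.59), and in 5 every dKO array lay above every control array (83.3%, against 15.8% and 25.3%). Mcm2 read 8.45, 8.80 and 8.55 in dKO, against 7.86, 7.45 and 7.15 in control arrays. Its lowest dKO pool was above its highest control pool, and the rise was 2.17-fold (log2 change 1.12 ± 0.21 SE, adjusted p = 0.0251). The other Mcm2 probe set, 1448777_at, differed by 1.02 (adjusted p = 0.0983).

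Mcm5 read 10.98, 10.74 and 10.90 in dKO, against 10.14, 10.05 and 10.28 in control arrays. The groups were well separated, and the rise was 1.64-fold (log2 change 0.72 ± 0.14 SE, adjusted p = 0.0271). A second Mcm5 probe set, 1415945_at, had the smallest p of the 3. Its values were 9.55, 9.88 and 9.72 in dKO, against 8.84, 8.70 and 8.66 in control arrays (1.97-fold, log2 change 0.98 ± 0.14 SE, adjusted p = 0.0117). The dimmest Mcm5 probe set, 1459658_at, differed by 1.07 without overlap and did not pass (adjusted p = 0.0704).

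Mcm3 and Mcm4 rose at probe sets other than their representatives. Mcm3 at 1426652_at read 9.65, 9.54 and 9.66 in dKO, against 8.77, 8.98 and 8.54 in control arrays (log2 change 0.85 ± 0.15 SE, adjusted p = 0.0218). At 1449705_x_at it read 10.79, 10.51 and 10.62 in dKO, against 9.91, 9.94 and 10.03 in control arrays (0.68 ± 0.14, adjusted p = 0.0297). All 5 Mcm3 probe sets were positive, from 0.54 to 0.85, and the representative stood at 0.58 ± 0.15 (adjusted p = 0.0634). Mcm4 at 1416214_at read 10.69, 10.75 and 10.94 in dKO, against 10.20, 9.99 and 9.55 in control arrays (0.88 ± 0.20, adjusted p = 0.0423). Its representative differed by 0.60 ± 0.15 (adjusted p = 0.0586), again without overlap.

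The remaining ring subunits differed less. Mcm6 read 11.75, 11.67 and 11.79 in dKO, against 11.62, 11.37 and 11.44 in control arrays, a small difference without overlap (log2 change 0.26 ± 0.13 SE, adjusted p = 0.326). Mcm7 overlapped between the groups, at 11.47, 11.75 and 11.72 in dKO and 11.64, 11.65 and 11.43 in control arrays (0.08 ± 0.15, adjusted p = 0.828), and its 4 probe sets spanned -0.05 to 0.14. The 6 proteins form 1 ring, but their transcripts differed by unequal amounts, from 0.08 for Mcm7 to 1.12 for Mcm2. Differences between the subunits were not tested. Outside the ring, Mcm8, a helicase linked to recombination repair, read 7.07, 6.96 and 6.99 in dKO, against 6.29, 6.84 and 5.88 in control arrays (0.67 ± 0.24, adjusted p = 0.158), and Mcm10, an assembly factor, differed by 0.19 ± 0.27 with overlap.

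**Figure D3:**
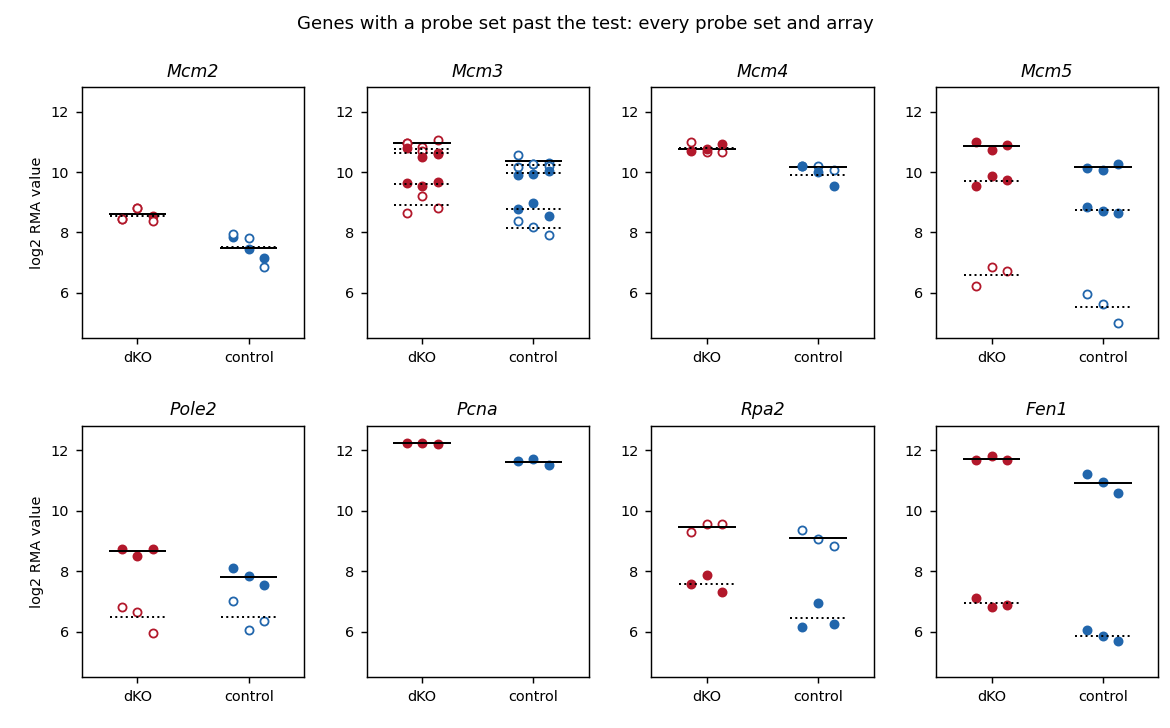
Log2 RMA values of the 8 replication genes with a probe set past the test, in dKO (red, left) and control arrays (blue, right). Points are single arrays, filled where the probe set passed an adjusted p of 0.05. Lines are group means, solid for the representative probe set and dotted for the others. Mcm2, Mcm5, Pole2, Pcna and Fen1 passed at the representative, and Mcm3, Mcm4 and Rpa2 at another probe set.

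Factors that fire the licensed origin did not pass. Of the 7 genes for the kinase Cdc7, its activator Dbf4, Cdc45 and the 4 GINS subunits, 6 had positive changes, with a median of 0.28 and a range of -0.13 to 0.50. Gins2 had the smallest p among them. It read 9.10, 9.47 and 9.09 in dKO, against 8.79, 8.49 and 8.89 in control arrays, without overlap (log2 change 0.50 ± 0.17 SE, adjusted p = 0.151), and its second probe set differed by 0.57. Dbf4 also had groups apart at its representative (0.28 ± 0.13), but its dimmer probe set overlapped (-0.07). The representatives of Cdc7, Gins1, Gins3 and Gins4 overlapped. Cdc45, which completes the active helicase, differed by -0.13 at its brighter probe set and by 0.52 at 1416575_at (adjusted p = 0.0999), so its direction depends on the probe set.

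At the primase step, which lays down the RNA-DNA primers, both primase genes had positive differences without overlap at their representatives. That order held for 15.8% of all genes and 25.3% of the brighter ones. Prim1, the catalytic primase subunit, read 10.13, 10.35 and 10.22 in dKO, against 9.52, 9.80 and 9.23 in control arrays. The groups did not overlap, and the difference was 1.64-fold (log2 change 0.72 ± 0.18 SE, adjusted p = 0.0593). Its second probe set gave 0.71 (adjusted p = 0.0782). Prim2, the large primase subunit, differed by 0.65 ± 0.22 (adjusted p = 0.138). Its other probe sets overlapped, at 0.61 for 1418035_a_at and -0.61 for the dimmest, 1445474_at. Pola1, the catalytic subunit of polymerase alpha, differed by 0.44 ± 0.18 with overlap, and by -0.21 at its dimmer probe set. Pola2, its accessory subunit, read 7.48, 7.57 and 7.47 in dKO, against 7.67, 7.80 and 7.67 in control arrays, with every dKO array below (-0.21 ± 0.12, adjusted p = 0.396), although its 2 dimmer probe sets had positive differences.

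Among the polymerases that extend the strands, Pole2 rose. It encodes the second subunit of polymerase epsilon, the leading-strand enzyme, and read 8.74, 8.49 and 8.75 in dKO, against 8.11, 7.83 and 7.53 in control arrays. The lowest dKO pool stood above the highest control pool (1.79-fold, log2 change 0.84 ± 0.18 SE, adjusted p = 0.0401). The dimmer Pole2 probe set, 1431440_at, did not show this, at 6.81, 6.66 and 5.97 in dKO and 7.03, 6.04 and 6.37 in control arrays, and over the mean of both probe sets the call was lost (adjusted p = 0.308). Pole, the catalytic subunit of the same enzyme, was the member with the most negative change (-0.39 ± 0.24, adjusted p = 0.409), with overlapping groups. Of the polymerase delta genes, Pold3 differed by 0.42 ± 0.12, with dKO values of 8.30, 8.33 and 8.33 and control values of 7.91, 7.89 and 7.90 (adjusted p = 0.0871), whereas its 2 other probe sets stood within 0.01 of 0. Pold1 and Pold2 overlapped between groups.

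The clamp rose, and 0 of the 5 genes of its loader passed. Pcna, the sliding clamp that holds polymerases on DNA, was the brightest member and had a single probe set. It read 12.23, 12.25 and 12.20 in dKO, against 11.63, 11.71 and 11.52 in control arrays. The dKO pools were nearly identical and the groups lay far apart for their spread (1.52-fold, log2 change 0.60 ± 0.13 SE, adjusted p = 0.0349). Of the 5 clamp loader genes, Rfc2 had groups that did not overlap at any of its 3 probe sets (0.47 to 0.66, adjusted p = 0.0709, 0.0539 and 0.0753). Rfc1, Rfc3, Rfc4 and Rfc5 overlapped, with representative changes of -0.16, 0.17, -0.01 and 0.16.

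Replication protein A, which coats the unwound single strands, had positive changes in its 3 genes (median 0.40). Rpa3, the smallest subunit, read 9.33, 9.38 and 9.06 in dKO, against 8.80, 8.68 and 8.63 in control arrays, without overlap (log2 change 0.55 ± 0.14 SE, adjusted p = 0.0693). Rpa2 rose at 1454011_a_at, with 7.57, 7.88 and 7.31 in dKO and 6.14, 6.94 and 6.26 in control arrays (2.20-fold, 1.14 ± 0.25, adjusted p = 0.0416). Its brighter representative showed a smaller difference with overlap (0.38 ± 0.17, adjusted p = 0.264), so the Rpa2 call rests on the dimmer probe set. Rpa1 differed by 0.40 ± 0.16 without overlap.

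Both genes that finish the lagging strand had every dKO array above every control array, as did 15.8% of all genes and 25.3% of the brighter ones. Fen1, the flap endonuclease that trims Okazaki fragments, read 11.67, 11.80 and 11.69 in dKO, against 11.22, 10.95 and 10.58 in control arrays. The rise was 1.75-fold (log2 change 0.80 ± 0.19 SE, adjusted p = 0.0473), close to the threshold. Its dimmer probe set 1421731_a_at rose more clearly, at 7.11, 6.83 and 6.87 in dKO and 6.05, 5.85 and 5.70 in control arrays (2.10-fold, 1.07 ± 0.15, adjusted p = 0.0111). Lig1, the ligase that seals the nicks, read 10.20, 10.33 and 10.51 in dKO, against 9.56, 9.83 and 9.76 in control arrays, and fell just short of the test (0.63 ± 0.15, adjusted p = 0.052).

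Of the fork protection and chromatin genes 0 of 5 passed. Tipin, which with Timeless stabilises stalled forks, read 10.30, 10.57 and 10.64 in dKO, against 10.04, 9.80 and 9.52 in control arrays, without overlap (log2 change 0.72 ± 0.18 SE, adjusted p = 0.0641). Its partner Timeless overlapped, at 0.12 ± 0.18. Wdhd1, which couples polymerase alpha to the helicase, differed by 0.51 ± 0.22 without overlap. Uhrf1, which guides DNA methylation to new strands, differed by 0.56 ± 0.22 without overlap, and by 0.17 with overlap at its dimmer probe set. Chaf1b, a subunit of the histone chaperone that follows the fork, overlapped (-0.03 ± 0.15).

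The control pools varied more among themselves. The dKO pools were closer to each other than the control pools in 32 of 49 members (65.3%, against 51.5% of all genes), with a median SD of 0.15 in dKO and 0.25 in control arrays. Control replicate 3 was the lowest control array in 30 members (61.2%, against 34.5% of all genes), and control replicate 1 the highest in 25. Per array, the mean level over the members was 9.17, 9.23 and 9.23 in dKO, against 8.97, 8.92 and 8.71 in control arrays. Without control replicate 3 the median change was 0.30. Then 25 members had every dKO array above both remaining controls (51.0%, against 20.5% of all genes and 28.8% of the brighter ones). Leaving out any other single array gave 25 to 28 members with every remaining dKO array above every remaining control (51.0 to 57.1%). The shares were then 19.9 to 20.5% of all genes and 27.6 to 30.3% of the brighter ones.

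**Figure D4:**
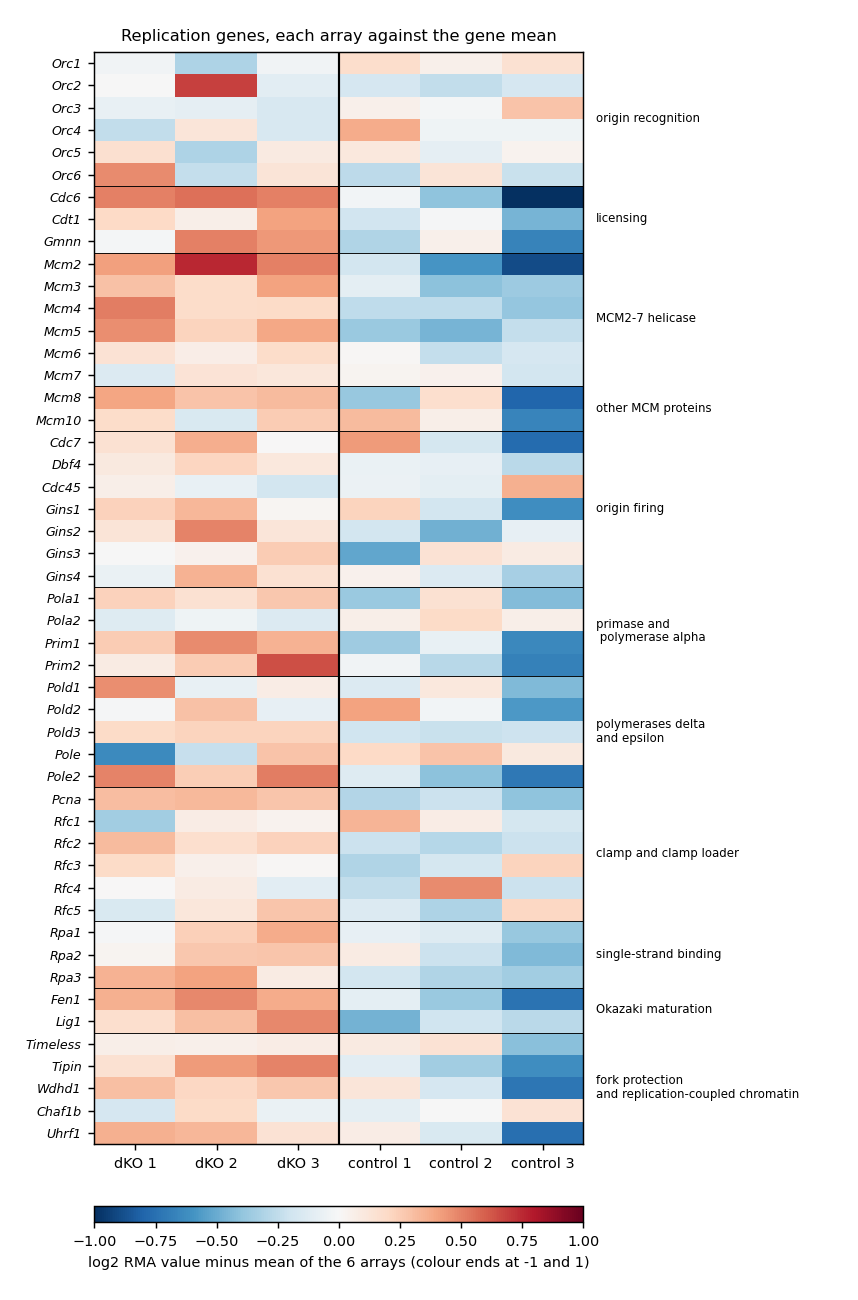
Each replication gene (rows, by step) in each array (columns), as the log2 RMA value of the representative probe set minus its mean over the 6 arrays. Red is above and blue below that mean, and the colour ends at -1 and 1, beyond which control replicate 3 lies at Cdc6. Control replicate 3 holds the deepest blue cells, at Cdc6 and Mcm2, and the origin recognition rows show no common order of the groups.

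The 5 calls were lost in most or all fits with 1 array left out. Such fits have fewer samples and degrees of freedom, and higher calls over all probe sets also fell, from 1608 to between 708 and 893. Without control replicate 1, Mcm2, Pole2 and Fen1 passed, with adjusted p = 0.0246, 0.0427 and 0.0435. Without any 1 of the other 5 arrays they did not pass, at 0.0624 to 0.0839 for Mcm2, 0.0762 to 0.12 for Pole2 and 0.0919 to 0.133 for Fen1. Mcm5 (0.0532 to 0.0891) and Pcna (0.075 to 0.102) passed in none of the 6 leave-outs. The log2 changes themselves stayed positive throughout, at 0.95 to 1.30 for Mcm2, 0.66 to 0.78 for Mcm5, 0.55 to 0.65 for Pcna, 0.69 to 0.98 for Pole2 and 0.64 to 0.96 for Fen1.

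Genes around the core machine were read from lists of the same kind. Of 39 further replication genes, 2 rose and 0 fell, with a median of 0.13. That share of rises, 5.13%, is near the 4.49% of all genes and below the 8.31% of the brighter genes defined above. The 2 were Asf1b, a histone chaperone of S phase, at 0.85 ± 0.13 (SE, log2, adjusted p = 0.0137), and Top1, which relaxes DNA ahead of the fork, at 0.66 ± 0.15 (adjusted p = 0.0417). Of 9 genes of deoxynucleotide supply 2 rose (22.2%) and 0 fell. Rrm2, the regulated subunit of ribonucleotide reductase, read 11.19, 11.06 and 11.27 in dKO, against 9.95, 9.84 and 9.88 in control arrays (1.28 ± 0.13, adjusted p = 0.00383), a larger change than at any of the 49 representatives. Dck, the deoxycytidine kinase, rose by 0.61 ± 0.13 (adjusted p = 0.0374).

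Of 13 E2F and retinoblastoma genes 2 rose (15.4%) and 1 fell. Over all genes 4.49% rose and 3.56% fell, and 8.31% of the brighter genes rose. E2f8, an atypical repressive E2F, read 9.83, 9.77 and 9.71 in dKO, against 8.68, 8.55 and 8.09 in control arrays (log2 change 1.33 ± 0.18 SE, adjusted p = 0.00908). Rb1, the retinoblastoma protein gene, rose by 0.89 ± 0.17 (adjusted p = 0.0246), and Tfdp2, a partner of E2F factors, fell by 0.91 on the log2 scale (adjusted p = 0.0186). E2f1 differed by 0.50 ± 0.16 without overlap (adjusted p = 0.121). Among 8 S-phase cyclins, kinases and their inhibitors, Cdkn1a, which encodes the inhibitor p21, rose by 3.05 ± 0.30 (adjusted p = 0.00383), and 7 genes did not pass.

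The mitosis list, a further mark of cycling cells, was read beside the replication genes, and the difference between the lists was not tested. Of 29 mitosis genes 0 passed in either direction in limma, and 2, Cenpa and Hmmr, had an unadjusted p under 0.05, both with negative changes (-0.64 and -0.47). The median change of the 29 was 0.01. In 1 of them, Prc1, every dKO array lay above every control array (3.45%, against 15.8% of all genes and 25.3% of the brighter ones). In 4, Cenpa, Cenpf, Hmmr and Pttg1, every dKO array lay below (against 14.2% of all genes and 19.5% of the brighter ones). The mean level over the mitosis list was 8.71 to 8.75 in dKO, against 8.58 to 8.87 in control arrays. Mki67, a marker of cycling cells, differed by -0.09 ± 0.13.

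Markers of other cells were read beside these results. The 6 megakaryocyte markers had a mean level of 8.45 to 8.81 in dKO and 7.19 to 7.35 in control arrays. Of them 3 rose, Pf4 (log2 change 1.11), Itga2b (1.16) and Ppbp (5.67), and 0 fell. The gap between the list means rests largely on Ppbp. Gp9 (0.2), Gp1bb (-0.23) and Gp6 (-0.03) did not pass, and Gp6 lay in the negative control range. The erythroid list (4 measured of 6 genes) had a mean level of 5.35 to 5.93 in dKO and 6.32 to 6.42 in control arrays, and 1 of 4, Klf1, fell. For the progenitor list of 6 genes the ranges were 6.32 to 7.43 in dKO and 6.83 to 7.57 in control arrays. Of these 1, Cd48, rose and 0 fell, but only 2 of the 6 changes were positive (median -0.26). Mpo (-2.35, adjusted p = 0.236), Elane (-0.77), Flt3 (-0.37) and Cd34 (-0.14) had negative changes that did not pass. The granulocyte, T and NK cell, B cell and macrophage lists, with 5, 4, 5 and 6 measured genes, had 0 calls, and their mean levels were at most 6.30 in dKO and 6.83 in control arrays, with Ncr1 of NK cells and Ms4a1 of B cells in the negative control range. The part of these markers, of Cd48 and of the Gapdh difference in the replication changes was not tested.

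Promoter strings and changes were set side by side for the 40 genes with a window. Of the 25 with an E2F string, 2 rose and 13 had every dKO array above every control array while 1 had the opposite order (median 0.42, range -0.22 to 1.03). Of the 15 without one, 3 rose, 6 were so ordered and 2 the opposite way (median 0.19, range -0.26 to 1.12). Among all genes 4.49% rose and 15.8% had every dKO array above, and among the brighter genes defined above 8.31% and 25.3%. The 2 sets of genes were not compared by a test. Mcm2, the member with the largest change, and Pcna are among the 15.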

How the data were processed

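RNA of 6 pools was extracted with Trizol, amplified over 2 rounds with a NuGEN Pico kit and hybridised to Affymetrix arrays, per the labels' protocols. The deposited log2 values are RMA output made by the authors (submitters' processing notes), with settings not given in the sources used here. RMA scales arrays to each other, so changes are relative, and it compresses changes of dim probe sets. Amplification can distort differences.

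Groups came from the sample titles. All 45037 non-control probe sets were fitted with limma 3.58.1 in R 4.3.3 (lmFit and eBayes, dKO minus control, 4 residual and 3.19 prior degrees of freedom), with Benjamini-Hochberg adjustment over all of them and a threshold of 0.05. Each adjusted p in the text is limma's. SD values describe the scatter among the 3 arrays in each group. SE values are limma's standard errors of the difference. They use a variance shared by both groups and drawn towards a prior estimated from all probe sets, so they can exceed what the SDs imply. Having 3 arrays per group limits the precision, and p-values weigh each difference against variation between pools. The fit was tested on simulated data. Genes were named through the platform annotation, and the Entrez identifiers of 49 of 49 members matched RefSeq symbols. Probe sets ending in _x_at or _s_at, which may bind related transcripts, represented 10 members (6 and 4). The negative control range rests on 3 probe sets.

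The members and lists were chosen with earlier results of these data known, so list counts and medians are descriptions without a test. Values by array are given for members with a probe set past the threshold and for the member with the smallest p of each step. They are also given for Mcm6, Mcm7, Pola2, Pold3 and Lig1, which this rule does not cover. Equal replicate numbers did not deviate together (correlations of -0.0164, 0.00238 and 0.0134), so no block was used. Alternatives were other scalings, a level filter, another prior, array weights, the replicate block, other choices of probe set and leaving out each array.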

Additional observations from a re-analysis of the deposited data

How the results depend on the processing

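Limits first: 3 pools a group leave 4 residual degrees of freedom, the 5 calls lie close to the threshold, and signals near the negative controls are bounds. The members' median change, 0.38 with all arrays, was 0.24 to 0.44 under the other settings and 0.30 to 0.43 with 1 array left out, and 0 members fell under any setting. The count of members that rose, 5, was 11 with each array centred on its median, 14 with a level filter, 13 with a trended robust prior, 10 for the mean over a gene's probe sets and 8 for the probe set of highest interquartile range. It was 4 after quantile normalization, where Fen1 did not pass (adjusted p = 0.0587), and 5 with array weights. Without _x_at and _s_at probe sets it was 5, but Mcm2 did not pass (0.0983) and Mcm4 did (chosen after seeing the data, as was recounting overlap without each array). It was 0 to 4 with 1 array left out. With the replicate block it was 0, and over all probe sets the block gave 814 higher and 716 lower calls, against 1608 and 1538. Replicate numbers do not pair these pools. With 1 array left out these counts were 708 to 893 higher and 630 to 812 lower. Fewer samples and degrees of freedom enter such fits.

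Changes of sign came in genes that did not pass. Centring gave Chaf1b 0.04, Orc5 0.03 and Rfc4 0.05, and quantile normalization gave Orc5 0.01. The mean over probe sets gave Cdc45 0.19, Gins3 -0.03, Orc1 0.09, Orc4 0.42, Pola2 0.09, Rfc1 0.01 and Rfc4 0.15. The probe set of highest interquartile range gave Cdc45 0.52, Dbf4 -0.07, Gins3 -0.25, Mcm7 -0.05, Orc1 0.43, Orc4 0.80, Pola1 -0.21, Pola2 0.35, Prim2 -0.61, Rfc1 0.10 and Rfc4 0.32. Without _x_at and _s_at probe sets Mcm7 was -0.05, Pold1 -0.11 and Rfc4 0.32. With 1 array left out the ranges were -0.22 to 0.01 for Cdc45, -0.13 to 0.05 for Chaf1b, -0.02 to 0.31 for Gins3, -0.09 to 0.40 for Mcm10, -0.12 to 0.11 for Orc5, -0.12 to 0.37 for Pold2, -0.14 to 0.22 for Rfc4 and -0.05 to 0.23 for Timeless. The other probe sets explain the changes under the choices of probe set by construction, and the cause of the rest was not tested.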
